A study of Homo sapiens with 16 samples.

Results

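Glycogen, the branched glucose polymer that cells store, is built and broken down by a short chain of enzymes, and 9 of their genes were followed here in spheroids of prostate cancer cell lines after knockdown of MED12. They are PYGL and PYGB, which release glucose from glycogen; GYG1, GYS1 and GBE1, which start, lengthen and branch the chain; UGP2, PGM1 and PGM2, which supply its glucose donor; and PPP1R3C, which brings a phosphatase to glycogen. The set was drawn up around PYGL, because its transcript was higher after siMED12 in 22Rv1 and in neither other line, and the remaining members were added for their place in the pathway. The values that chose PYGL, its levels and its siMED12 effects, are therefore described and not tested. The SEs and intervals given for PYGL belong to that description. The 9 genes were found by symbol among 62703 counted genes, and 8 of them were among the 10566 genes tested.

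LNCaP, 22Rv1 and PC3 are established prostate cancer lines: LNCaP responds to the antiandrogen enzalutamide, 22Rv1 resists it and PC3 is insensitive to it. Each line was transfected with 25 pmol of pooled interfering RNAs, either directed at MED12 (siMED12) or without a target (siCtrl). Cells stayed in 2D for 3 days and as spheroids for another 4 days. Control (siCtrl) spheroids gave 3 libraries per line. Knockdown spheroids gave 3 in LNCaP but 2 each, numbered 1 and 3, in PC3 and 22Rv1. The labels name no enzalutamide or androgen deprivation in any group, and all knockdowns used the same pool. Counts are 3′ tags, of which each transcript gives about the same number whatever its length. Levels of different genes can therefore be set side by side, provided that their reads were assigned equally well, which was not tested. Levels are in CPM, counts scaled to a common library total by the TMM method (trimmed mean of M values), with the SD between libraries.

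Glycogen phosphorylase cuts glucose 1-phosphate from the ends of the chains, and its liver, brain and muscle isozymes are encoded by PYGL, PYGB and PYGM. Phosphoglucomutase interconverts glucose 1-phosphate and glucose 6-phosphate, and the UGP2 product turns glucose 1-phosphate into UDP-glucose. Glycogenin (GYG1) primes the particle, glycogen synthase (GYS1 in most tissues) extends it from UDP-glucose, and the branching enzyme (GBE1) adds its side chains. Several of these genes are known to be induced when oxygen is low, a state that can arise inside spheroids, and the hypoxia-inducible factors bind DNA at the cores ACGTG and GCGTG.

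The depth was 479118 to 993807 counts per library, and 14365 to 15867 genes were detected. For a gene with 0 counts the upper limit was 3 counts, or 3.02 to 6.26 CPM across libraries. The line marker CAV1 followed the labels, with 2.80 CPM in LNCaP siCtrl, 14.8 CPM in 22Rv1 siCtrl and 532.8 CPM in PC3 siCtrl. The leukocyte gene PTPRC had 0 counts in every library. MED12 itself was low, at 11.5 ± 1.48 CPM in siCtrl and 8.0 ± 2.04 CPM in siMED12 of LNCaP (n = 3 and 3). It was at 19.8 ± 3.39 and 8.20 ± 1.1 CPM in 22Rv1 (n = 3 and 2), and at 18.5 ± 9.99 and 15.2 ± 0.926 CPM in PC3 (n = 3 and 2). None of these MED12 differences passed the test after adjustment (adjusted p = 0.878, 0.175 and 0.987 by the edgeR quasi-likelihood test). The log2 difference was -0.50 in LNCaP (95% interval -1.45 to 0.45) and -1.28 in 22Rv1 (-2.21 to -0.35). In PC3 it was -0.22 (-1.11 to 0.66). These differences rest on 5 to 22 counts per library, too few to judge the extent of the knockdown. The study describes the MED12 knockdown in its spheroids as highly efficient. In the 22Rv1 siMED12 replicate 3 library, 63 genes restricted to PC3 stood at 5.35% of their PC3 level, against 0.758% to 0.919% in the other 4 22Rv1 libraries. The 10 genes restricted to LNCaP stood at 4.34% of their LNCaP level in that library, against 1.2% to 2.6% in the others of 22Rv1. In PC3 siMED12 replicate 3, 24 genes restricted to LNCaP stood at 3.27%, against 1.21% to 1.99% in the other PC3 libraries. The excess is called carried-over counts below, but its origin was not tested. Restricted genes were picked on siCtrl levels, so a rise after siMED12 would also add to it. Subtraction of carried-over counts took PYGB in PC3 siMED12 replicate 3 from 157 to 155 counts. The siMED12 differences of the members in 22Rv1 are therefore also given without 22Rv1 siMED12 replicate 3, and for other genes high in PC3 both 22Rv1 siMED12 libraries are given.

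The stretch before the transcription start was compared between members, from RefSeq promoters on GRCh38.p14, each 250 bases long and read on the strand of its gene. The promoters of 3 members are shown: PYGL, on which the set was chosen, PYGB, the other phosphorylase member, and PPP1R3C, the member without counts. Capitals mark the cores ACGTG and GCGTG on either strand, where overlapping matches run together.
PYGL, chr14:50944484-50944733, minus strand: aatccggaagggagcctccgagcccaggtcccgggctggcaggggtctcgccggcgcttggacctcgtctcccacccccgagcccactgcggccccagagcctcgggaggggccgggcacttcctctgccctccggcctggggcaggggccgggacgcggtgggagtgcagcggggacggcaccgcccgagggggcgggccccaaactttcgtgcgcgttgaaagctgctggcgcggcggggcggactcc
PYGB, chr20:25247835-25248084, plus strand: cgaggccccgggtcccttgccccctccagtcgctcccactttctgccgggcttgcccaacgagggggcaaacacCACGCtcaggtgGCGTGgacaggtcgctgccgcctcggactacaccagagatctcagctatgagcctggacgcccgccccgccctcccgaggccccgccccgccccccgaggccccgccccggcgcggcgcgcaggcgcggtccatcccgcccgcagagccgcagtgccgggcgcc
PPP1R3C, chr10:91633072-91633321, minus strand: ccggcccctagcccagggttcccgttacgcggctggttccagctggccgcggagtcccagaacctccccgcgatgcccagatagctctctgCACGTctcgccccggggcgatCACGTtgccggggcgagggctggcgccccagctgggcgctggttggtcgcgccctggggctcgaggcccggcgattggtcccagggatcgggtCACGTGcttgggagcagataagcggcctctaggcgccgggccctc

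The PYGL promoter held neither core, and the PYGB promoter held 2 matches, both GCGTG. The PPP1R3C promoter held 4 matches to ACGTG, of which 2 lie on opposite strands of a single CACGTG. At least 1 core was found in a promoter entry of 8 of the 9 members, all but PYGL, against 43.2% of 35116 promoters of the same length. PGM1 and UGP2 have more than 1 entry and so more letters in which to match, and the PGM1 matches lie in 1 of its 3 entries. ACGTG was found in 6 members and in 18.5% of all promoters, and GCGTG in 7 members and in 32.2% of all promoters. A match is a run of letters and not a measured binding site. Whether the cores have a part in any siMED12 difference was not tested.

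PYGL (ENSG00000100504, chromosome 14, 50857891-50944483, minus strand, GRCh38) was the member that differed most between the lines in control spheroids and the member on which the set was chosen. In siCtrl it had 39.8, 57.3 and 61.5 CPM in LNCaP, 7.81, 10.0 and 6.42 CPM in 22Rv1, and 150.9, 133.5 and 131.5 CPM in PC3. The 3 lines did not overlap: PC3 was highest, at 138.6 ± 10.7 CPM, followed by LNCaP at 52.8 ± 11.5 CPM and 22Rv1 at 8.08 ± 1.82 CPM (n = 3 each). The PC3 level was 17.1 times the 22Rv1 level in the fit.

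**Figure D1:**
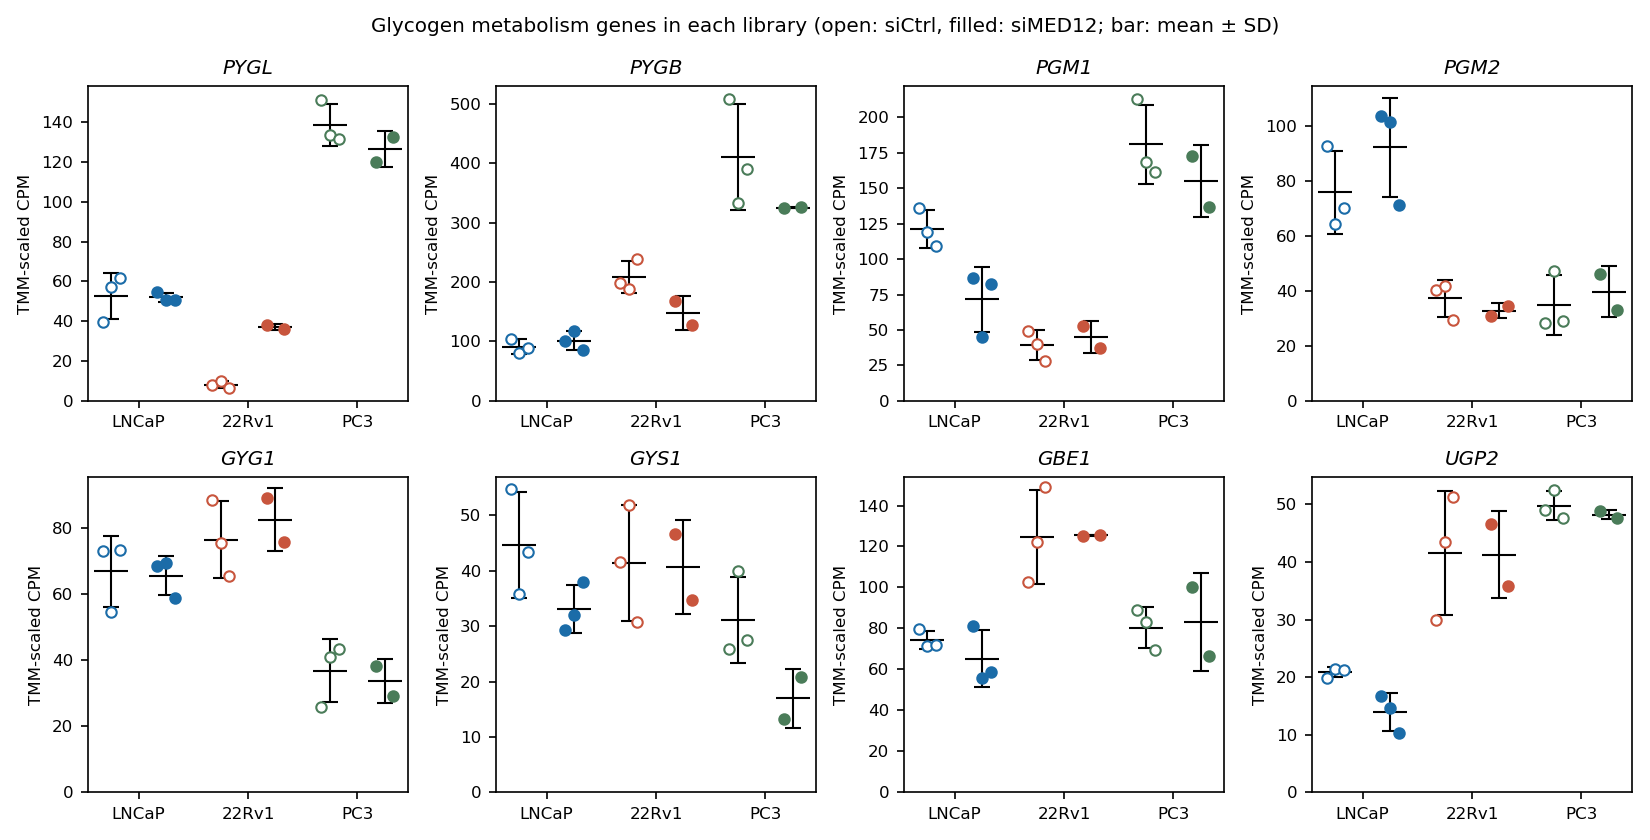
Level of each member with counts in every library, in TMM-scaled CPM on a linear axis from 0, by cell line; open points are siCtrl, filled points are siMED12, and black bars are the mean ± SD of a group. PYGL in 22Rv1 rose from 6.42 to 10.0 CPM in siCtrl to 35.9 and 38.2 CPM in siMED12, while its siCtrl and siMED12 points overlap in LNCaP and PC3.

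After siMED12, PYGL in 22Rv1 had 38.2 CPM in replicate 1 and 35.9 CPM in replicate 3. These rest on 36 and 28 counts, against 6, 6 and 5 counts in siCtrl. Both siMED12 libraries lay above all siCtrl libraries of the line, and both lay below all LNCaP libraries, so the 22Rv1 level after knockdown remained under that of the other lines. The log2 difference was 2.20 (SE 0.341), or 4.61-fold. It was 2.24 without replicate 3, the library with the excess of PC3 transcripts, and 2.09 after the estimated carried-over counts had been subtracted, which left 35 and 22 counts.

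In LNCaP the siMED12 libraries had 54.6, 50.7 and 50.6 CPM of PYGL, all within the range of siCtrl, and the log2 difference was -0.06 (SE 0.199). In PC3 they had 120.0 and 132.7 CPM, of which the higher lay within the siCtrl range, and the log2 difference was -0.14 (SE 0.175). The gene ABHD12B, which PYGL overlaps on the opposite strand, had 0 to 19 counts per library and 1.28 CPM in 22Rv1 siMED12.

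PYGB (ENSG00000100994, chromosome 20, 25248085-25298012, plus strand) encodes the brain isozyme and was the main phosphorylase transcript in all 16 libraries. In siCtrl it had 91.2 ± 12.2 CPM in LNCaP, 208.4 ± 26.6 CPM in 22Rv1 and 410.6 ± 89.3 CPM in PC3 (n = 3 each), and the lines did not overlap. Each step passed the test: 22Rv1 exceeded LNCaP by 1.20 on the log2 scale (adjusted p = 1.71e-06), PC3 exceeded LNCaP by 2.17 (adjusted p = 1.33e-12) and PC3 exceeded 22Rv1 by 0.97 (adjusted p = 2.41e-06). The order of the lines thus differed between the isozymes, with 22Rv1 lowest for PYGL and intermediate for PYGB.

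After siMED12, PYGB in 22Rv1 had 167.5 and 127.0 CPM, against 197.8, 188.9 and 238.7 CPM in siCtrl. Both siMED12 libraries lay below every siCtrl library, but the log2 difference of -0.50 (SE 0.184) did not pass the test (adjusted p = 0.204). It was -0.32 without replicate 3 and -0.54 with carried-over counts subtracted. In PC3 the siMED12 libraries had 324.4 and 325.6 CPM, also below all siCtrl libraries (333.3 to 508.3 CPM), with a log2 difference of -0.33 (SE 0.167, adjusted p = 0.974). In LNCaP the groups overlapped, with a log2 difference of 0.15 (SE 0.193, adjusted p = 0.921). The 3′ end of PYGB overlaps ABHD12 on the opposite strand, and without a stated strand setting their reads cannot be told apart for certain. ABHD12 had 29 to 94 counts per library and a log2 difference of 0.05 in 22Rv1.

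PYGM, the muscle isozyme, had 0 or 1 count in every library, so phosphorylase counts were those of PYGL and PYGB. PYGL made up 3.82% ± 1.21 of them in 22Rv1 siCtrl (n = 3) and 20.3% ± 2.47 in 22Rv1 siMED12 (n = 2). The 3 siCtrl libraries were at 3.80% (95% Wilson interval 1.75% to 8.04%), 5.04% (2.33% to 10.6%) and 2.62% (1.12% to 5.98%). The siMED12 libraries were at 18.6% (13.7% to 24.6%) and 22.0% (15.7% to 30.0%). These intervals cover counting error only and, as PYGL was chosen on these libraries, are no test of the difference.

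**Figure D2:**
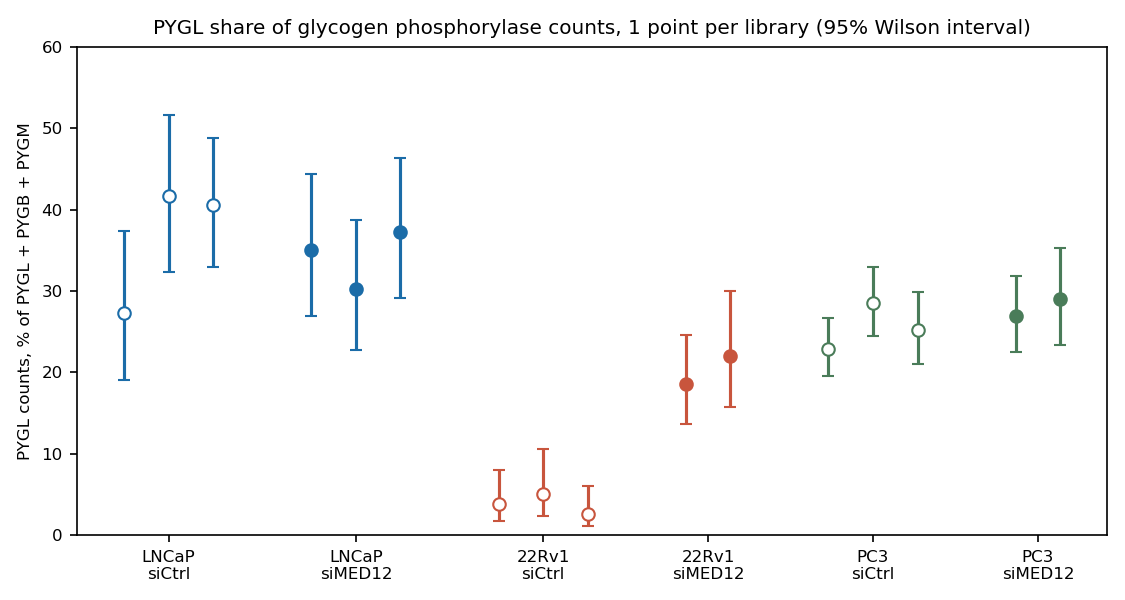
PYGL as a percentage of all phosphorylase counts (PYGL, PYGB and PYGM), 1 point per library with its 95% Wilson interval; open points are siCtrl and filled points are siMED12. The share lay between 2.62% and 5.04% in 22Rv1 siCtrl, at 18.6% and 22.0% in 22Rv1 siMED12, and between 22.9% and 41.7% in the libraries of LNCaP and PC3.

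In LNCaP the PYGL share was 36.5% ± 8.01 in siCtrl and 34.2% ± 3.66 in siMED12 (n = 3 each), and in PC3 it was 25.5% ± 2.84 in siCtrl (n = 3) and 27.9% ± 1.44 in siMED12 (n = 2). The summed level of the phosphorylases was 216.5 ± 25.0 CPM in 22Rv1 siCtrl and 184.3 ± 30.3 CPM in 22Rv1 siMED12. It was 145.0 ± 7.08 and 153.0 ± 16.4 CPM in LNCaP, and 549.6 ± 98.7 and 452.0 ± 8.87 CPM in PC3. In PC3 both siMED12 sums (445.8 and 458.3 CPM) lay below all siCtrl sums (467.8 to 659.2 CPM). The higher PYGL share in 22Rv1 stood beside overlapping sums, 162.9 and 205.7 CPM in siMED12 against 198.9 to 245.1 CPM in siCtrl. The sums were not tested. As the lysates are bulk, more transcript per cell and more cells with the transcript cannot be told apart.

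The genes that build the chain, GYG1, GYS1 and GBE1, were measured in all lines and none passed the test after siMED12. GBE1 (ENSG00000114480, chromosome 3, 81489703-81761645, minus strand), the branching enzyme, had 102.8, 122.0 and 148.8 CPM in 22Rv1 siCtrl and 125.1 and 125.7 CPM in 22Rv1 siMED12. Its log2 difference there was 0.01 (SE 0.187, 95% interval -0.37 to 0.39, adjusted p = 1). In LNCaP it went from 74.4 ± 4.44 to 65.3 ± 13.8 CPM (log2 -0.19, SE 0.201) and in PC3 from 80.5 ± 10.1 to 83.3 ± 24.0 CPM (log2 0.09, SE 0.219), both with overlapping groups. Between control spheroids, 22Rv1 was higher than LNCaP by 0.75 (adjusted p = 0.00135), and PC3 was lower than 22Rv1, with a log2 difference of -0.62 (adjusted p = 0.0039).

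GYG1 (ENSG00000163754, chromosome 3, 148991408-149031775, plus strand), the primer protein, was lowest in PC3. Its siCtrl level was 66.8 ± 10.7 CPM in LNCaP, 76.4 ± 11.6 CPM in 22Rv1 and 36.7 ± 9.53 CPM in PC3, and PC3 was lower than LNCaP (log2 -0.86, adjusted p = 0.00128) and than 22Rv1 (log2 -1.05, adjusted p = 0.000119). LNCaP and 22Rv1 did not differ beyond their spread (log2 0.19, adjusted p = 0.471). With siMED12 the log2 difference for LNCaP was -0.04 (SE 0.200), that for 22Rv1 was 0.11 (SE 0.207) and that for PC3 was -0.09 (SE 0.293), all with overlapping groups. Its 3′ end overlaps HLTF on the opposite strand, which had 10 to 48 counts per library.

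GYS1 (ENSG00000104812, chromosome 19, 48968130-48993310, minus strand), the synthase, had 44.7 ± 9.49, 41.4 ± 10.5 and 31.1 ± 7.74 CPM in siCtrl of LNCaP, 22Rv1 and PC3, and no pair of lines passed the test (adjusted p = 0.109 to 0.737). In PC3 it had 25.8, 40.0 and 27.5 CPM in siCtrl and 13.2 and 20.7 CPM in siMED12. The siMED12 libraries lay below all siCtrl libraries but held 10 counts each, and the log2 difference of -0.96 (SE 0.374) did not pass the test (adjusted p = 0.891). In LNCaP the difference was -0.40 (SE 0.252, adjusted p = 0.782), and in 22Rv1 it was 0.01 (SE 0.269, 95% interval -0.54 to 0.56, adjusted p = 1). The summed level of GYG1, GYS1 and GBE1 was 242.4 ± 8.39 CPM in 22Rv1 siCtrl and 248.4 ± 17.6 CPM in 22Rv1 siMED12.

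UGP2 (ENSG00000169764, chromosome 2, 63840952-63891562, plus strand), which makes UDP-glucose, was lowest in LNCaP, where siCtrl had 19.9, 21.5 and 21.2 CPM. The siCtrl level was higher in 22Rv1 (41.6 ± 10.8 CPM, log2 0.98, adjusted p = 0.00311) and in PC3 (49.8 ± 2.52 CPM, log2 1.25, adjusted p = 8.91e-05), which did not differ beyond their spread (adjusted p = 0.315). After siMED12 the LNCaP libraries had 16.8, 14.7 and 10.4 CPM, all below siCtrl. They rest on 9 to 12 counts, and the log2 difference of -0.60 (SE 0.328) did not pass the test (adjusted p = 0.728). The differences in 22Rv1 and PC3 were 0.01 (SE 0.249) and -0.05 (SE 0.249).

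PGM1 (ENSG00000079739, chromosome 1, 63593411-63660245, plus strand), the classical phosphoglucomutase, showed the largest siMED12 difference in LNCaP among the members tested. It had 135.9, 118.9 and 109.2 CPM in LNCaP siCtrl and 86.7, 45.4 and 82.8 CPM in LNCaP siMED12. All siMED12 libraries lay below all siCtrl libraries, and the lowest was replicate 2. The log2 difference was -0.74 (SE 0.206, 95% interval -1.16 to -0.32) with an adjusted p of 0.148, so it was not called. With the replicate number as a block, which pairs the LNCaP libraries, it was -0.75 with an adjusted p of 0.0114, and without the filter on low counts the adjusted p was 0.0271. Without siMED12 replicate 2 it was -0.50 (adjusted p = 0.846).

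In 22Rv1 the PGM1 difference was 0.22 (SE 0.293, adjusted p = 0.833), and its size rested on the library: it was 0.44 without siMED12 replicate 3, -0.09 without siMED12 replicate 1 and 0.07 with carried-over counts subtracted, which took replicate 3 from 29 to 20 counts. In PC3 it was -0.21 (SE 0.203, adjusted p = 0.978). The groups overlapped in both lines. The effect in 22Rv1 exceeded that in LNCaP by 0.96 on the log2 scale (SE 0.359), and this difference between lines did not pass the test (adjusted p = 0.436). In control spheroids PGM1 had 121.3 ± 13.5 CPM in LNCaP, 39.3 ± 10.6 CPM in 22Rv1 and 181.0 ± 27.8 CPM in PC3. 22Rv1 was lower than LNCaP (log2 -1.61, adjusted p = 1.08e-06) and PC3 was higher than 22Rv1 (log2 2.20, adjusted p = 4.1e-10) and than LNCaP (log2 0.59, adjusted p = 0.00687). The last of these had an adjusted p of 0.0712 without LNCaP siCtrl replicate 3.

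PGM2 (ENSG00000169299, chromosome 4, 37826660-37862937, plus strand), a phosphoglucomutase that also acts on pentose phosphates, was highest in LNCaP. Its siCtrl level was 75.7 ± 15.0 CPM there, 37.2 ± 6.71 CPM in 22Rv1 and 34.9 ± 10.8 CPM in PC3, with LNCaP above 22Rv1 (adjusted p = 0.00076) and above PC3 (adjusted p = 0.00025). With siMED12 its log2 difference for LNCaP was 0.29 (SE 0.200), that for 22Rv1 was -0.18 (SE 0.298) and that for PC3 was 0.19 (SE 0.303), all with overlapping groups. PGM1 made up 59.4%, 64.8% and 60.9% of the PGM1 and PGM2 counts in LNCaP siCtrl and 45.6%, 30.9% and 53.7% in LNCaP siMED12, so that every siMED12 share lay below every siCtrl share. In PC3 the share was 78.0% to 88.2% over both groups, and in 22Rv1 it was 48.9% to 63.3%.

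PPP1R3C (ENSG00000119938, chromosome 10, 91628442-91633071, minus strand), also called PTG, targets protein phosphatase 1 to glycogen. It had 0 counts in all 16 libraries and was not tested. Its level was not detectable at this depth, which by counting error alone allows up to 3.02 to 6.26 CPM. Reads lost in gene assignment would also give 0 counts and were not examined. Among other genes, NDRG1, EGLN1 and PRKAG1 had at most 4, 2 and 1 counts per library. These 3 were named after their values were seen, and the cause was not tested.

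The members ranked differently in each line. In LNCaP siCtrl, PGM1 stood first and UGP2 last, and the levels between, from PYGB down to GYS1, overlapped from each gene to the next. In 22Rv1 siCtrl the order was PYGB, GBE1 and GYG1, each separate from the next, then UGP2, GYS1, PGM1 and PGM2, which overlapped, and PYGL last and separate. In PC3 siCtrl the order was PYGB, PGM1, PYGL, GBE1 and UGP2, each separate from the next, then GYG1, PGM2 and GYS1, which overlapped. PYGL thus had rank 6 of 8 members in LNCaP, rank 8 in 22Rv1 and rank 3 in PC3.

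Between control spheroids, 5 of the 7 tested members other than PYGL passed the test in 22Rv1 against LNCaP, 3 higher and 2 lower, where 43.2% of all tested genes did, 22% higher and 21.2% lower. In PC3 against LNCaP it was also 5 of 7, 3 higher and 2 lower, against 54.7% of all genes (29.2% higher, 25.5% lower), and in PC3 against 22Rv1 it was 4 of 7, 2 higher and 2 lower, against 54.9% (28.7% higher, 26.1% lower). The siCtrl groups did not overlap for 5, 5 and 4 of the 7 members, against 51.2%, 60.2% and 58.9% of all genes. With 7 genes, nothing particular to the members is read from these shares. The 3 comparisons share their siCtrl libraries.

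After siMED12, 0 of these 7 members passed the adjusted threshold of 0.05 in LNCaP, 0 in 22Rv1 and 0 in PC3 by the edgeR quasi-likelihood test, where 0.416%, 1.84% and 0% of all tested genes did. DESeq2 and limma also called 0 of them in each line, whereas in LNCaP the fit with the replicate block, which pairs those libraries, and the fit with no filter each called 1, PGM1. At an unadjusted p under 0.05 there was 1 member in each line: PGM1 in LNCaP, PYGB in 22Rv1 and GYS1 in PC3, each lower, where 7.34%, 11.7% and 4.99% of all genes had such a p. Groups did not overlap for 2 members in LNCaP (PGM1 and UGP2), 1 in 22Rv1 (PYGB) and 2 in PC3 (PYGB and GYS1), against 12.6%, 26.6% and 20.7% of all genes. Without siMED12 replicate 3 the log2 differences in 22Rv1 were 0.22 for GYG1, 0.20 for GYS1, 0.17 for UGP2, -0.26 for PGM2 and close to 0 for GBE1, and 0 members passed the test. As the set was chosen on these contrasts, nothing is read from those shares. The median log2 difference of the 7 was -0.19 in LNCaP, 0.01 in 22Rv1 and -0.09 in PC3, beside medians of -0.00, 0.01 and -0.04 over all tested genes.

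**Figure D3:**
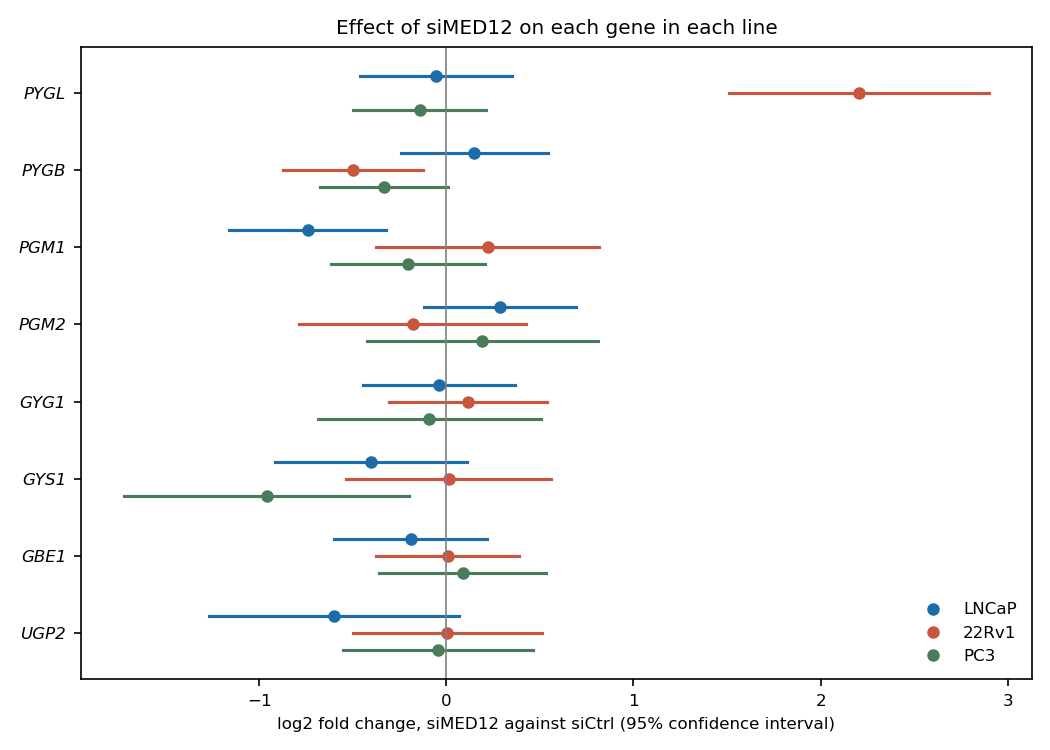
Log2 fold change of siMED12 against siCtrl for each member with counts, by cell line, with 95% confidence intervals; the grey line marks no difference. PYGL in 22Rv1 stands at 2.20, and every other point lies between -0.96 and 0.29. PYGL was the gene the set was chosen on and is shown as a description, so its interval and its distance from the other points are no test.

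The mean effect over the lines passed the test for 0 of the 7 members (0.265% of all genes), with 2 members, PYGB and GYS1, at an unadjusted p under 0.05 (8.52% of all genes). Their mean log2 effects were -0.23 (SE 0.105, adjusted p = 0.547) and -0.45 (SE 0.176, adjusted p = 0.423). The differences between the effects of the lines passed for 0 of 7 members in each of 3 pairs of lines, where 0.189% of all genes did for 22Rv1 against LNCaP, 0.0284% for PC3 against LNCaP and 0.0946% for PC3 against 22Rv1. At an unadjusted p under 0.05 there were 2, 0 and 1 members in these pairs, against 8.28%, 5.02% and 9.16% of all genes.

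The wider pathway was examined in 51 other genes, of which 38 were tested. They cover other chain-building isozymes, phosphatase 1 subunits, other breakdown genes with phosphorylase kinase, glycogen kinases with laforin and malin, the glucose phosphate junction, and other users of UDP-glucose. In LNCaP 2 of 38 passed the edgeR test after siMED12, both lower, where 0.416% of all tested genes passed. In 22Rv1 and PC3 0 passed, by DESeq2 and limma too, where 1.84% and 0% of all tested genes passed by edgeR, and 3 and 2 had an unadjusted p under 0.05. The median log2 difference of the 38 was -0.01 in LNCaP, 0.01 in 22Rv1 and 0.10 in PC3. As these genes were also chosen with earlier results of these data known, nothing is read from their shares.

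The 2 genes that fell in LNCaP were GPI and SLC2A1, which lie at the entry of glucose into the pathway. GPI, which interconverts glucose 6-phosphate and fructose 6-phosphate, had 1884, 1963 and 2297 CPM in siCtrl and 1228, 767.3 and 1383 CPM in siMED12. It fell by 0.86 on the log2 scale (SE 0.145, adjusted p = 0.00145), and over all alternatives its adjusted p stayed at or under 0.0466. SLC2A1, the glucose transporter GLUT1, had 182.2, 177.6 and 149.5 CPM in siCtrl and 124.5, 50.7 and 100 CPM in siMED12. It fell by 0.88 (SE 0.191, adjusted p = 0.0213). Its adjusted p was 0.0574 when only the LNCaP libraries were fitted, and 0.14, 0.173 and 0.0649 without siCtrl replicate 1, 2 or 3 and 0.333 without siMED12 replicate 2.

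Within the wider pathway, PPP1R3B, another glycogen-targeting subunit of phosphatase 1, had 24.9, 20.1 and 9.54 CPM in LNCaP siCtrl and 9.79, 4.00 and 3.45 CPM in siMED12 (log2 -1.59, SE 0.487, adjusted p = 0.233), and at most 4 counts in the libraries of the other lines. GYS2, PPP1R3A and STBD1 had 0 counts in all libraries. PPP1R3B and these 3 were named after their values were seen.

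A reference list of 20 hypoxia genes, of which 18 were tested, was set beside the members. This list was chosen with earlier results of these data known, so its shares past the threshold are no independent test. In LNCaP 8 passed the test, all lower, where 0.416% of all tested genes passed, and the median log2 difference of the 18 was -0.83. Those with the smallest p were BHLHE40 (log2 -2.62), PFKFB4 (-1.39), DDIT4 (-1.21) and BNIP3 (-0.95). The count in LNCaP was 5, 2 and 1 without siCtrl replicate 1, 2 or 3, and 2 without siMED12 replicate 2. In 22Rv1 3 passed, all lower, where 1.84% of all tested genes passed: DDIT4 (-1.82), BNIP3L (-0.92) and PFKFB3 (-1.0), with a median of -0.66 over the 18. The count was 3 without siMED12 replicate 3, 1 without siMED12 replicate 1 and 5 without LNCaP siMED12 replicate 2. In PC3 0 passed by edgeR, DESeq2 or limma, 0 had an unadjusted p under 0.05, and the median was -0.13. The PYGL difference in 22Rv1 was not tested for a link with these genes. Whether oxygen differed between the spheroids was not measured.

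**Figure D4:**
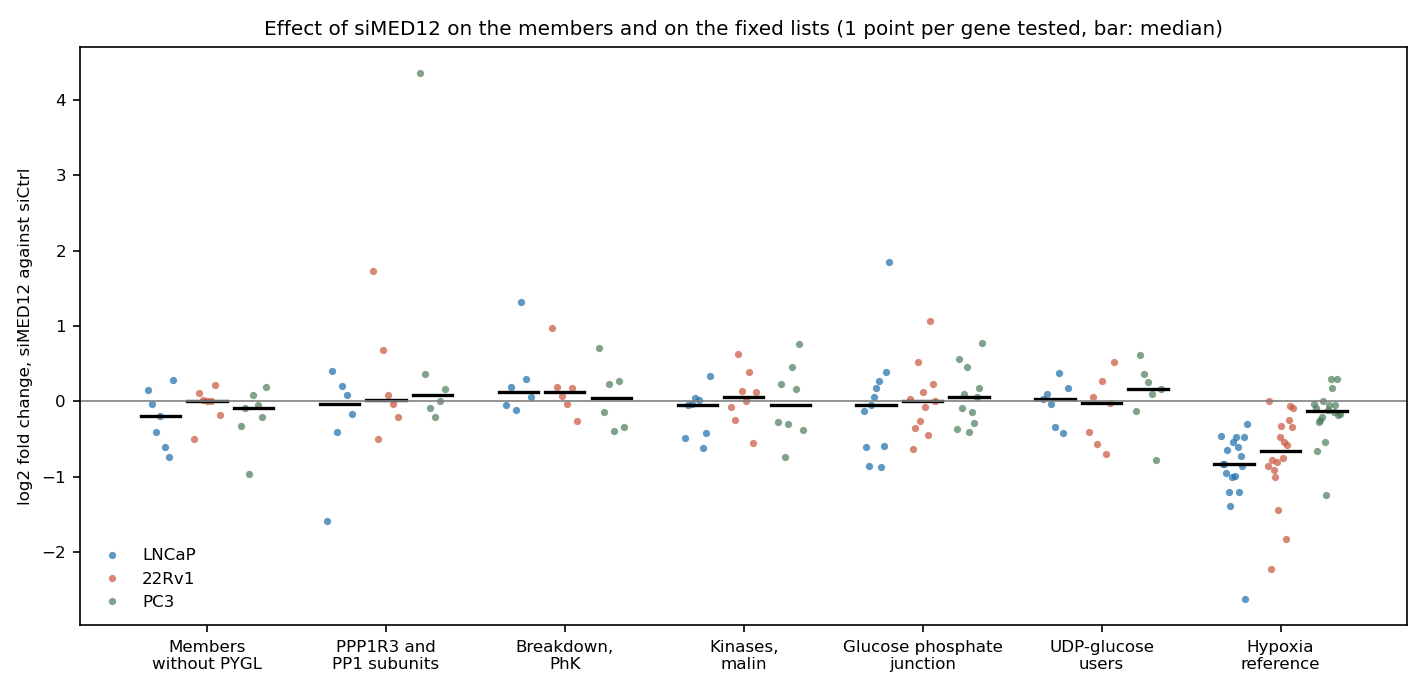
Log2 fold change of siMED12 against siCtrl for the tested members other than PYGL and for the tested genes of the wider lists, by cell line; each point is a gene and each bar the median of its list. The hypoxia medians are -0.83 in LNCaP, -0.66 in 22Rv1 and -0.13 in PC3, and the highest point, PPP1R3B in PC3, rests on 0 counts in siCtrl and 3 and 1 counts in siMED12.

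The genes whose pattern over the 16 libraries was most like that of PYGL were COL6A1, a collagen VI chain, FTH1P10, a ferritin heavy chain pseudogene, and FKBP9, a prolyl isomerase of the endoplasmic reticulum. Likeness was the mean absolute difference in log2 CPM after each gene had been centred on its own mean, among 6719 genes. It was 0.299, 0.33 and 0.353 for these genes, against a median of 1.1 over all genes compared. As the 16 libraries include those of 22Rv1, a rise there like that of PYGL favoured the choice of these genes. COL6A1 had 19.5, 36.8 and 24.4 CPM in 22Rv1 siCtrl, 42.4 and 46.2 CPM in siMED12 replicates 1 and 3, and 318 CPM in PC3 siCtrl. Subtraction of carried-over counts took its replicate 3 from 36 to 22 counts and its replicate 1 from 40 to 38. FTH1P10 had 5.13 to 7.81 CPM in 22Rv1 siCtrl and 14.8 and 21.8 CPM in siMED12 replicates 1 and 3. FKBP9 had 2.57 to 5.21 CPM in 22Rv1 siCtrl and 9.54 and 8.98 CPM in siMED12 replicates 1 and 3, from 9 and 7 counts. FTH1P10 is a processed copy of FTH1, so its counts are uncertain. Among the members, PGM1 was closest to PYGL at 0.576 and PYGB followed at 0.963, while the other 5 lay between 1.16 and 1.34.

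The caveolin gene CAV1, which is high in PC3, had 13.4 to 16.9 CPM in 22Rv1 siCtrl and 35.0 and 60.3 CPM in siMED12 replicates 1 and 3. Subtraction of carried-over counts took replicate 3 from 47 to 28 counts. VIM, also high in PC3, had 37.7 to 41.1 CPM in 22Rv1 siCtrl and 30.8 CPM in siMED12 replicate 1, below siCtrl, but 60.3 CPM in siMED12 replicate 3, above it. Their part in the PYGL difference was not tested. In 22Rv1 siMED12 replicate 1, where genes restricted to PC3 stood at 0.894% of their PC3 level, PYGL was at 38.2 CPM.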

How the data were processed

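RNA of 16 spheroid cultures was measured by BRB-seq 3′ tag sequencing. The authors aligned and counted reads with STARsolo on GRCh38.p13; whether molecular identifiers were collapsed and which strand setting was used are not given in the sources used here. The deposited count table holds raw counts per gene. The deposited log2 CPM table, made by the authors from those counts with edgeR, was recomputed here for the same 10566 genes and used in an alternative only. Members and lists were chosen with earlier results of these data known.

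Counts were fitted in R 4.3.3 with edgeR 4.0.16 (TMM, minimum count 10, minimum total 15, a mean for each of 6 groups, quasi-likelihood test, 2-sided p adjusted by Benjamini-Hochberg over all genes tested, threshold 0.05). The fit was tested on simulated data. Alternatives used limma 3.58.1, DESeq2 1.42.0, relative log expression scaling, other filters, a replicate block, single lines, subtraction of carried-over counts and each library left out. The legacy edgeR test was added after the data were seen. All members were named, with at most 4 genes past the threshold per list and contrast, by smallest p, and the 3 genes most like PYGL. Intervals and limits for 0 counts cover counting error only. The study states biological replicates; the labels do not say that the libraries came from separate cultures, in which case p-values measure only the spread between these libraries. Same-numbered libraries deviated together in LNCaP (r = 0.177, 0.132 and 0.135), so the numbers were taken as pairs there. They also did in 22Rv1 (r = 0.19 and 0.253) and in PC3 (r = 0.117 and 0.0787). With 2 siMED12 libraries in each of these lines, the 2 deviations mirror each other, so pairs there are less certain. No pair of libraries of a group agreed within sampling noise. Coordinates are from Gencode 44, matched by gene identifier. Some results are not reported here.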

Additional observations from a re-analysis of the deposited data

How the results depend on the processing

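With no filter on low counts and with the replicate block, the count of members past the threshold after siMED12 in LNCaP was 1 (PGM1, adjusted p = 0.0271 and 0.0114), against 0 otherwise; the cause was not tested. Same-numbered libraries deviated together in all lines, but in 22Rv1 and PC3 the pairs rest on 2 siMED12 libraries each. In 22Rv1 and PC3 the block changed no member's call. It turned GYG1 in PC3 to 0.039, and limma on the deposited log2 CPM turned GYS1 in 22Rv1 to -0.011. Fitting single lines turned GBE1 and UGP2 in 22Rv1 to -4.8e-05 and -0.0031. All of these had a reported log2 difference close to 0. Leaving out 1 library turned the sign of differences that had not passed the test. After siMED12 in 22Rv1 the ranges were -0.12 to 0.16 for GBE1, -0.029 to 0.24 for GYG1, -0.25 to 0.20 for GYS1, -0.089 to 0.44 for PGM1 and -0.22 to 0.20 for UGP2. In PC3 they were -0.28 to 0.31 for GBE1, -0.34 to 0.059 for GYG1 and -0.11 to 0.51 for PGM2, and for GYG1 in LNCaP -0.14 to 0.049. Between siCtrl groups they were -0.28 to 0.077 for GYS1 (22Rv1 against LNCaP) and -0.39 to 0.061 for PGM2 (PC3 against 22Rv1). GYS1 in PC3 against LNCaP siCtrl passed the test without PC3 siCtrl replicate 2 (-0.72, adjusted p = 0.042). PYGL in 22Rv1 ranged from 1.90 (limma) to 2.35 (replicate block), and from 2.05 to 2.36 with 1 library left out. The count of hypoxia genes past the threshold in LNCaP was 8 in the fit reported, 3 with DESeq2, 5 with limma and 5 with at least 10 counts in every library, and in 22Rv1 it was 3 in the fit reported and 7 with no filter. UGP2 and PYGL gave no value when 10 counts were required in every library, the mean effect was not refitted by single lines, and the block was not applied between siCtrl groups. Depth limits PYGL in 22Rv1 siCtrl to 5 or 6 counts per library.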
